A study of Gallus gallus with 8 samples.

Results

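SF3B1 knockout was compared with a scrambled guide in 4 of the 8 libraries of the series. The cells were GFP+ primary trunk neural crest cells of chicken (Gallus gallus) that had received CRISPR-Cas9 with a scrambled guide RNA (control, 2 libraries numbered as replicates) or with guide RNA 1 or guide RNA 2 against SF3B1 (2 libraries, 1 per guide). Knockouts of PHF5A and of DLC1, also with 1 library for each of 2 guides, entered the same fit and served for comparison. RNA came from about 50000 GFP+ cells per treatment, and the labels give neither the age of the embryos nor the number pooled. They say nothing of clones or of the share of edited cells, and nothing of separate cultures, so the p-values reflect the spread among these libraries, which may be technical. The spread of SF3B1 knockout holds guide and library differences together.

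The trunk neural crest is a migratory population of the vertebrate embryo that arises at the border of the neural tube and forms pigment cells and the neurons and glia of the peripheral ganglia. SF3B1 is the largest subunit of SF3b, the complex by which U2 snRNP recognises an intron's branch point before splicing. PHF5A is a small subunit of the same complex, and in human cells both contact the pocket that small-molecule splicing modulators bind.

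The deposited table holds Ensembl gene IDs with positions and no gene names, and 0 of them could be paired with a name here, so neither the level of SF3B1 itself nor markers of the neural crest were analysed. Features are therefore described by chromosome, genomic span (start to end on GRCg6a), read level and neighbours. Total counts were 19163114 and 18226753 in the controls and 19565587 and 18545207 in the SF3B1 libraries, and 33864758 to 34698250 in the others. Libraries of a group differed by more than sampling noise (chi-square per degree of freedom 37.4 to 176). All 5357 features that lie wholly inside another feature had no read in any of the 8 libraries, including the 2760 whose only overlaps were on the opposite strand. Among the 16867 features without overlap, 1916 had no read. Nested features were thus not measured on either strand, and counts over a whole span do not tell intronic from exonic reads.

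Between SF3B1 knockout and control libraries, 2636 of 15583 features tested differed (16.9%). Of these, 1519 rose (9.75%) and 1117 fell (7.17%), words that here give the direction from control and not the cause. Among the called features the rises were the larger. Their median standard error was larger as well, at 0.284 against 0.219 for the falls, and a call then takes a larger change. Part of the gap is thus fixed by the choice. The median log2 fold change was 1.30 for the risen features (quartiles 0.95 and 1.77), against -0.88 (-1.10 and -0.72) for those that fell, and -0.02 for all features tested. At least 4-fold changes numbered 257 among the risen and 42 among the fallen features. The called features were those past an adjusted p of 0.05 in edgeR's quasi-likelihood test, with MT, Z and W left out of the scaling. In all 2636, both guide libraries lay on the same side of both controls in CPM (counts per 1e+06 counts outside MT, Z and W, after TMM scaling), as they did in 10462 of all features tested (67.1%). In 726 risen features (4.66%) and 130 fallen ones (0.834%), all 4 ratios of a guide to a control library were at least 2-fold. The control mean was under 1 CPM in 29.3% of these 726 and 5.38% of these 130, against 15.2% of all features tested. The filter on low counts can admit such features through the knockout libraries, so part of the surplus of rises may be fixed by it.

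The number of calls rested on each of the 4 libraries. Leaving out control 1 gave 893 calls and leaving out control 2 gave 614. Leaving out guide 1 gave 132, and leaving out guide 2 gave 1517. Leaving out a DLC1 or PHF5A library moved the number as well, since these enter the filter on low counts, the scaling and the spread. Without DLC1 guide 2 the median log2 fold change of all features was 0.03, against -0.02 with all libraries. The W chromosome took 0.146% and 0.00219% of the counts in the controls (Wilson 95% interval of the second 0.00198% to 0.00241%) and 0.235% and 0.159% in the SF3B1 libraries. Given that share as a model term, edgeR called 2 features, and 2358 had an unadjusted p under 0.05. In that fit the median of the risen features was 1.28 in place of 1.30, and their median standard error (SE) went from 0.284 to 0.432. The median of the fallen features went from -0.88 to -0.74 and their SE from 0.219 to 0.309. The share of calls that rose was 57.6%, against 68.6% with MT, Z and W in the scaling and 92.2% when counts were scaled by library size alone. The last put the median of all features at 0.30 on the log2 scale. The share was 54.8% with median-ratio factors, 53.8% with no filter on low counts and 48.9% with DESeq2, where falls outnumbered rises (1839 against 1759).

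**Figure D1:**
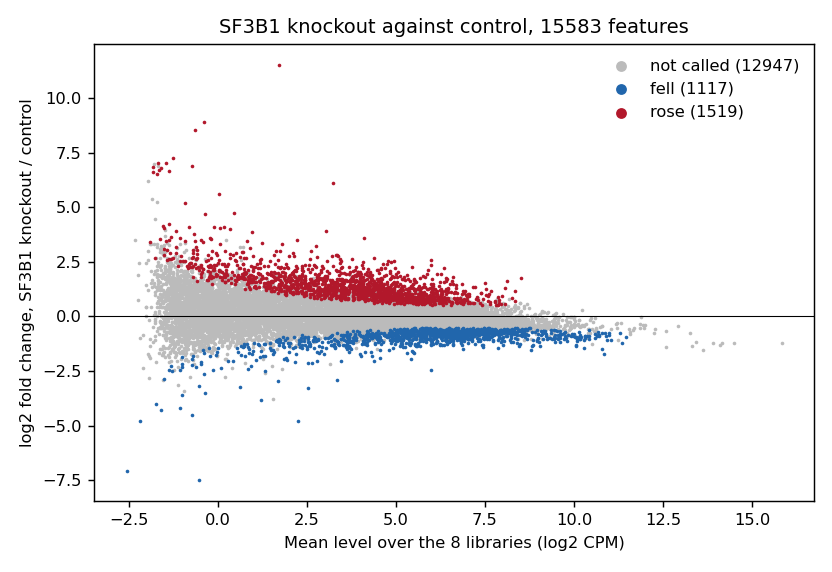
Log2 fold change of each tested feature in SF3B1 knockout over control against its mean level over the 8 libraries in log2 CPM. The 1519 risen features (red) spread over low and middle levels, and the 1117 fallen ones (blue) reach the highest levels.

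The risen features had a median span of 28.9 kb and the fallen ones of 7.75 kb, against 15.7 kb over all features tested. Control level enters the fold change and the power of the test, so it is given as a description. Its median was 8.17 CPM in the risen and 105 CPM in the fallen features, against 17.9 CPM overall. The control mean was under 1 CPM in 15.1% of the risen and 0.716% of the fallen features, against 15.2% of all. The share that overlapped no other feature was alike, at 66.4% of the risen, 65.5% of the fallen and 66.8% of all. By strand, 9.97% of plus-strand and 10.1% of minus-strand features outside MT, Z and W rose, and 6.98% and 6.54% fell.

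The changes were larger with guide 1 than with guide 2 in most features. Guide 1 stood further from the mean of the controls than guide 2 in 68.7% of the risen and 82.2% of the fallen features, against 62.1% of all. Risen features had a median log2 ratio to that mean of 1.37 with guide 1 and 1.21 with guide 2, and fallen ones of -1.0 and -0.74. Features of 30 to 100 kb also had larger medians with guide 1 in PHF5A (0.45 against 0.28) and DLC1 knockout (0.34 against 0.22). Those over 300 kb did not (0.47 against 0.49 and 0.59 against 0.60). Whether guide or library made these gaps was not tested. When each guide was set against a different control, so that no library was shared, Pearson's r across the 15583 features was 0.626 with control 1 under guide 1 and 0.584 with the controls swapped. Spearman's rank correlation was 0.684 and 0.614. These correlations are across features, which are not independent replicates. The libraries of the 2 guides differed by at least 2-fold in 707 features (4.54%), fewer than the 1197 (7.68%) by which the 2 controls differed. The median absolute log2 difference was close, at 0.246 between the guides and 0.267 between the controls. The controls hold fewer counts outside MT, Z and W, and the part of depth was not tested.

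With guide 1 alone (guide 2 left out), 1517 features were called. With guide 2 alone, 132 were called, and 131 of these (0.841% of all tested) were called in the same direction with guide 1 alone. They make up 99.2% of the guide 2 calls and 8.64% of the guide 1 calls. In these fits a lone library is assumed to vary like the other groups. Both fits share the controls and all PHF5A and DLC1 libraries, so the overlap is not an independent agreement of the guides. Of the 131, 120 rose, by a median of 2.03 on the log2 scale, and spanned a median of 24.7 kb. The other 11 fell, with a median of -1.68, and spanned 5.66 kb.

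**Figure D2:**
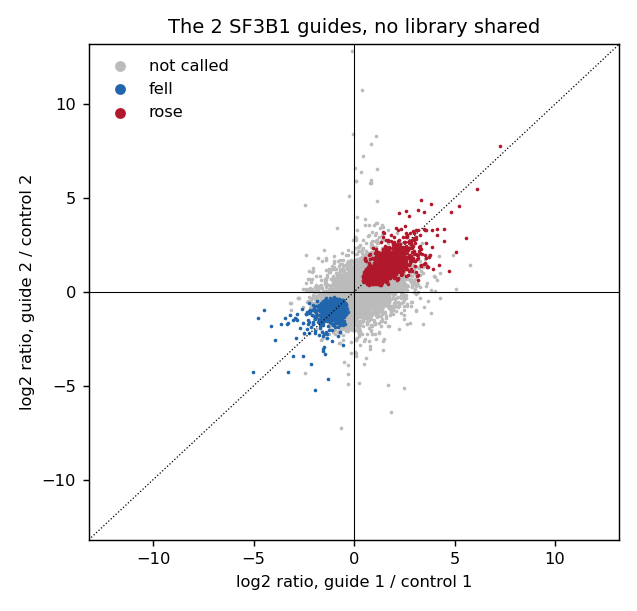
Log2 ratio of SF3B1 guide 2 to control 2 against that of guide 1 to control 1 for each feature, with the diagonal dotted. Risen features (red) lie up and right and fallen ones (blue) down and left, and the cloud has a Pearson r of 0.626.

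With TMM scaling and all libraries, features of 30 to 100 kb rose most often and those of 1 to 3 kb fell most often. The excess of falls among the calls of short features turned in some other fits. Of 3277 features of 30 to 100 kb outside MT, Z and W, 560 were up (17.1%) and 105 down (3.20%), and the class median of the log2 fold change was 0.19. Those of 100 to 300 kb, 1118 in number, included 143 risen and 40 fallen ones (median 0.15). The order turned among shorter features: 410 of 4141 features of 3 to 10 kb fell (9.90%) and 213 rose (median -0.19), and 167 of 1323 features of 1 to 3 kb fell (12.6%) and 52 rose (3.93%; median -0.33). Features of 10 to 30 kb stood between, with 488 risen and 253 fallen of 4554 and a median of 0.04. The 220 features over 300 kb did not continue the rise, with 15 risen (6.82%), 10 fallen and a median of -0.14. Against the same controls, features of 1 to 3 kb had medians of -0.45 in PHF5A and -0.36 in DLC1 knockout. Those of 30 to 100 kb had medians of 0.38 and 0.28. The pattern up to 100 kb was thus shared by the 3 knockouts.

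By library, features of up to 3 kb had a median log2 ratio to the mean of the controls of -0.39 with guide 1 and -0.22 with guide 2, and the controls stood at -0.07 and 0.07. Features of 30 to 100 kb had medians of 0.28 and 0.11, with the controls at 0.03 and -0.03. Both guide libraries lay outside the controls in these classes. From 100 to 300 kb the medians were 0.25 and 0.03, with the controls at 0.01 and -0.01, so guide 2 lay close to control 1. Without guide 1, 7 features of that class rose and none fell by edgeR, with a median of 0.01. Over 300 kb the medians were 0.02 and -0.25, with the controls at -0.04 and 0.04, so guide 1 lay among the controls. With 2 libraries against 2 an exact permutation test cannot go below p = 0.333, so these medians were not tested. Relative to the median of all features, the median of 1 to 3 kb was -0.31 and that of 30 to 100 kb was 0.21, distances that a change of scaling hardly alters by its construction.

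The direction of the calls among short features depended on scaling and on single libraries. Their class medians stayed below 0 without guide 1, at -0.25 for 1 to 3 kb and -0.15 for 3 to 10 kb. Both guides had medians below both controls in these classes, so that sign was close to fixed. Scaled by library size alone, there were 106 risen against 36 fallen features of 1 to 3 kb (median -0.01) and 489 against 89 of 3 to 10 kb (median 0.13). Leaving out control 2 gave 20 risen and 10 fallen features of 1 to 3 kb (median -0.20) and 72 and 38 of 3 to 10 kb (median -0.11). Leaving out guide 1 gave 3 and 1 of 1 to 3 kb and 15 and 4 of 3 to 10 kb. Leaving out control 1 gave 12 and 57 of 1 to 3 kb and 55 and 126 of 3 to 10 kb. Among features of 30 to 100 kb rises outnumbered falls in each of these fits, from 46 against 1 without guide 1 to 942 against 21 under library size alone.

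**Figure D3:**
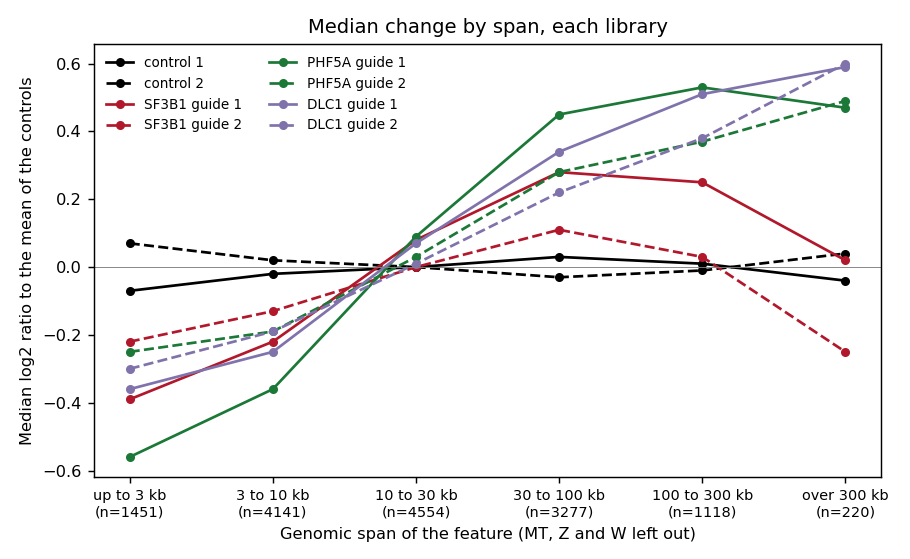
Median log2 ratio to the mean of the controls by genomic span, 1 line for each of the 8 libraries, with the number of features under each class. The SF3B1 lines (red) rise from -0.39 and -0.22 at up to 3 kb to 0.28 and 0.11 at 30 to 100 kb. The PHF5A and DLC1 lines rise as well, from -0.56 to -0.25 at up to 3 kb to 0.22 to 0.45 at 30 to 100 kb. Over 300 kb the SF3B1 lines come down to 0.02 and -0.25, where the PHF5A and DLC1 lines stay at 0.47 to 0.60.

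Span and read level went together in the features that fell. Features outside MT, Z and W were divided by mean log2 CPM over all 8 libraries into 4 groups of equal size. CPM is not per length, so these groups rank reads and not transcripts. In the group of highest read level, 546 of 3690 features fell (14.8%) and 177 rose, and the median log2 fold change was -0.26. Rises outnumbered falls in that group when counts were scaled by library size alone (490 against 96, median 0.06), without control 2 (56 against 30) and without guide 1 (14 against 2). The median of the group of highest level stayed below 0 without control 2 (-0.23) and without guide 1 (-0.24). By library it was -0.26 and -0.24 with the guides, and the controls stood at 0.03 and -0.03. Leaving out 1 library could thus hardly turn that sign. In the group of lowest level, 260 of 3691 rose and 58 fell (median 0.32). A feature could pass the filter on low counts by its level in any group, and most groups were knockouts. Features low in the controls could thus enter where they were high, so part of the rise at lowest level may be fixed by the filter. That part was not tested. Among the features of highest level, those of 1 to 3 kb fell in 85 of 217 cases (39.2%) and rose in 1, with a median of -0.73. Against the same controls, the median of this class was -0.89 in PHF5A and -0.74 in DLC1 knockout, so the fall was not particular to SF3B1. Those of 3 to 10 kb fell in 232 of 1017 cases (22.8%). Of 854 with a span of 30 to 100 kb, 88 were among the risen and 57 among the fallen, and the median was -0.07.

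Calls of a rise among longer features were most frequent in the middle of the level range. The share called follows the power of the test as well as the size of the change. In the second group from the bottom, 221 of 846 features of 30 to 100 kb were up (26.1%) and 12 down, and the class median was 0.41. It was 0.58 in PHF5A and 0.43 in DLC1 knockout. In the third, 207 of 927 rose (22.3%) and 27 fell, with a median of 0.24. At the lowest level, features of 1 to 3 kb had a median of 0.13 and those of 30 to 100 kb of 0.38. Of the latter only 6.77% were called as risen, at a median close to that of the second group. The short features of highest level had a median ratio of -0.96 with guide 1 and -0.52 with guide 2, and the controls stood at -0.10 and 0.10. Scaled by library size alone, their median was -0.41. Without control 1, 29 of them fell in place of 85, without control 2, 3 fell (median -0.54), and without guide 1 the median was -0.53 with no call in edgeR.

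The most abundant features took a smaller share of the counts outside MT, Z and W in both SF3B1 libraries. These are not shares of all counts. The mitochondrial chromosome took 25.9% and 21.4% of all counts in the controls and 9.44% and 18.0% in the SF3B1 libraries. The gap between the groups is narrower over all counts. The 100 features with the highest mean share of counts outside MT, Z and W held 22.5% and 24.0% of those counts in the controls and 17.6% and 19.7% in the SF3B1 libraries. They held 16.5% and 18.5% in the PHF5A libraries and 18.3% and 20% in the DLC1 libraries. Of these 100 features, whose median span was 7.24 kb, 41 fell in SF3B1 knockout and none rose by the edgeR test. Over all features tested 7.17% fell and 9.75% rose, and 14.8% fell in the group of highest read level. Of the 100, 99 lay below control, and their median log2 fold change was -0.65, against -0.02 over all features. Scaled by library size alone, 96 features of the group of highest read level fell in place of 546. The 100 features were not recounted under that scaling. The part of the smaller share in the changes by span was not tested.

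**Figure D4:**
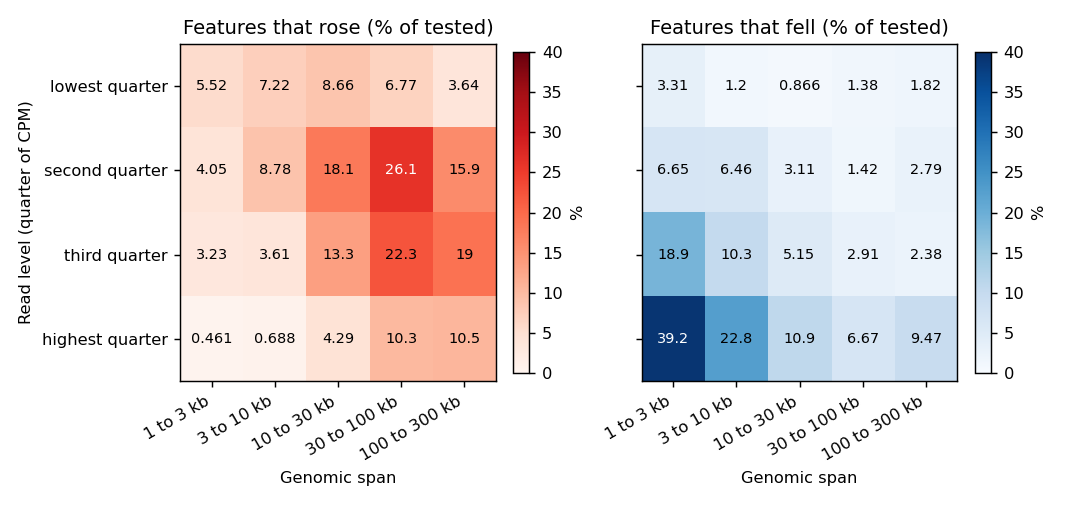
Share of tested features that rose (left) and fell (right) in SF3B1 knockout, in percent, by read level (rows) and genomic span (columns). With TMM scaling, falls gather at high level and short span, up to 39.2%. Rises gather at 30 to 100 kb in the middle levels, up to 26.1%. These are shares of calls, which follow the power of the test as well as the size of the change.

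Between large and small chromosomes taken as classes, the shares of changed features were close, with a wider gap among long features. Chickens have a few large chromosomes and many very small, gene-dense ones. On chromosomes 1 to 5, 638 of 6759 features rose (9.44%) and 429 fell (6.35%), and on chromosomes 11 to 33, 570 of 5470 rose (10.4%) and 393 fell (7.18%). Among features of 30 to 100 kb, 188 of 798 rose on the small chromosomes (23.6%) and 262 of 1869 on the large ones (14.0%), with medians of 0.30 and 0.12. For 100 to 300 kb the shares were 20.9% and 11.3%. Among features of 1 to 3 kb, 13.4% fell on the small and 11.3% on the large chromosomes, with medians of -0.42 and -0.29. Span within these classes was close, with medians of 47.4 and 50 kb at 30 to 100 kb, while read level was not matched and the gap was not tested. By single chromosome outside MT, Z and W, the share that rose ran from 1.69% on chromosome 32 (1 of 59) to 14.1% on chromosome 15 (53 of 377), and the share that fell from 3.70% on chromosome 16 (3 of 81) to 15.2% on chromosome 31 (7 of 46). Falls outnumbered rises on chromosomes 11, 25, 28, 30, 31, 32 and 33. The widest such gap in number was on chromosome 25 (21 against 10 of 192). In share it was on chromosome 32 (8.47% against 1.69% of 59).

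On the 3 chromosomes kept out of the scaling the changes ran differently. Of 37 mitochondrial features 14 fell (37.8%), and the median over all 37 was -1.37 on the log2 scale. Their median ratio was -2.03 with guide 1 and -0.93 with guide 2, and the controls stood at 0.13 and -0.13. The mitochondrial chromosome took 25.9% and 21.4% of all counts in the controls and 9.44% and 18.0% in the SF3B1 libraries. With guide 1 and guide 2 it took 8.01% and 19.6% in PHF5A and 9.65% and 15.7% in DLC1 knockout. Without guide 1, 1 of these features was called, and without control 1, 3.

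The Z and W chromosomes are the sex chromosomes of birds, in which males carry ZZ and females ZW and the dosage of Z is only partly compensated. Of 747 Z features 105 fell (14.1%) and 32 rose, with a median of -0.30 and medians by library of -0.30 and -0.24. The controls stood at -0.22 and 0.22, so both guides lay near control 1. Without control 2, 4 Z features fell and 13 rose, with a median of -0.02, and without control 1, 89 fell and 2 rose, with a median of -0.45. The median was 0.03 with the W share in the model, and also 0.03 when counts were scaled by library size alone, where 66 rose and 20 fell. Of 38 W features 5 rose, with a median of 1.17, while the controls lay 2.00 above and 2.00 below their own mean. Without control 1, 28 W features rose, with a median of 7.09, and without control 2, 1 rose, with a median of 0.51. The part of the sex of the embryos in the other results was not tested beyond the covariate fit given above.

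Over all adjacent pairs, a changed feature had a neighbour that moved the same way in somewhat more cases than features at large, a count with no test. Of 1475 adjacent pairs of tested features in which the first rose, the second rose in 13.4%, and over all 14710 pairs the second rose in 1471. After a fallen feature the next fell in 9.05%, against 6.76%. For neighbours at least 100 kb apart the share after a risen feature was 4.41% (3 of 68), against 8.99%. At 10 to 100 kb the next feature fell after a fallen one in 5.13%, against 5.69%, and rose after a risen one in 15.2%, against 10.9%. There were 25 runs of at least 3 adjacent risen features and 9 of fallen ones. The longest held 6 risen features each. One lay at chr13:17176061-17399545 (GRCg6a), with log2 fold changes of 0.57 to 1.92. Another lay at chr6:36216495-36277895, with 0.79 to 8.89, and the last at chr23:41758-200385, with 0.82 to 3.51. In PHF5A knockout the median log2 fold changes of these runs, in that order, were 1.38, 1.71 and 0.87, and in DLC1 knockout 0.84, 1.52 and 0.28. These comparisons share the control libraries. The runs were picked by their values and carry no test.

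Of the features that met the conditions for naming (789 risen and 606 fallen), the 2 with the largest smallest ratio of a guide to a control are named in each direction. ENSGALG00000066579, at the low-coordinate end of the run on chromosome 23 (chr23:41758-47081, plus strand), stood at 1.24 and 1.45 CPM in the controls and at 15.6 and 15.1 CPM in the SF3B1 libraries. The group means were 1.35 ± 0.148 and 15.4 ± 0.354 CPM (SD, n = 2 each). Groups that do not overlap were a condition for every named feature. The log2 fold change was 3.51 (SE 0.53, edgeR adjusted p = 0.00743). The PHF5A libraries stood between, at 5.51 and 9.95 CPM, and the DLC1 libraries at 4.74 and 1.60 CPM. Its nearest tested neighbour, 46.4 kb away, rose as well (log2 fold change 2.05, edgeR adjusted p = 0.0271).

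ENSGALG00000030710 (chr20:78510-113919, minus strand) stood at 3.23 and 5.21 CPM in the controls and at 48.2 and 52.8 CPM with the SF3B1 guides. The smallest log2 ratio of a guide to a control library, by which it was chosen, was 3.19. The log2 fold change was 3.58 (SE 0.55, edgeR adjusted p = 0.00767). In the PHF5A libraries it reached 27.6 and 48.9 CPM and in the DLC1 libraries 20.7 and 5.96 CPM. Its tested neighbours, 2.73 and 4.12 kb away, had log2 fold changes of 0.24 and -0.03 and were not called (edgeR adjusted p = 0.824 and 0.927). Both rising features lost their call with the W share in the model (edgeR adjusted p = 0.178 and 0.174), with log2 fold changes of 3.36 to 3.83 and 3.31 to 4.03 over all alternatives.

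ENSGALG00000029657 (chr25:2088584-2094743, plus strand) fell from 21.4 and 20.7 CPM in the controls to 0.572 and 0.977 CPM in the SF3B1 libraries, which hold 11 and 15 reads of it. The log2 fold change was -4.78 (SE 0.43, edgeR adjusted p = 0.00342), and the call held in all 12 alternatives (adjusted p at most 0.0449). The other knockouts lay between control and SF3B1, at 3.57 and 6.33 CPM for PHF5A and at 4.83 and 7.67 CPM for DLC1. The neighbours within 1.18 kb did not fall. On one side the log2 fold change was 0.62 (edgeR adjusted p = 0.096), and on the other the feature rose by 0.95 (edgeR adjusted p = 0.0306).

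ENSGALG00000067111 (chr3:64543355-64547713, plus strand) fell from 6.29 and 4.95 CPM in the controls to 0.572 and 1.5 CPM. The guide libraries lay further apart as a ratio than the controls did. The log2 fold change was -2.47 (SE 0.60, edgeR adjusted p = 0.0253). It was no longer called without control 1 (0.0798), without control 2 (0.0612), without guide 1 (0.167) and with the W share in the model (0.2), by edgeR adjusted p. The group mean of this feature was lowest in DLC1 knockout, at 0.283 and 0.109 CPM (9 and 3 reads). PHF5A stood at 0.154 and 0.651 CPM (5 and 18 reads). The libraries of these groups overlap, and so few reads do not settle their order. The next feature, 7.49 kb away, fell as well (log2 fold change -2.20, edgeR adjusted p = 0.0429).

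**Figure D5:**
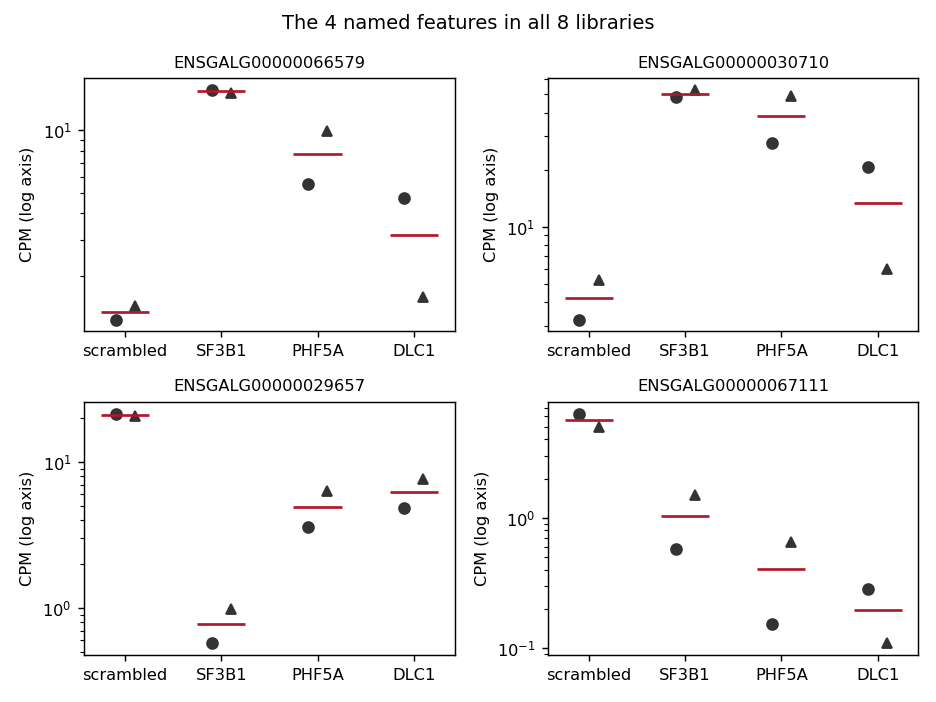
Level of the 4 named features in CPM (log axis) in each of the 8 libraries by group, with library 1 or guide 1 as a circle, library 2 or guide 2 as a triangle and the group mean as a red line. The features were chosen for SF3B1 libraries that lie apart from the controls. SF3B1 knockout has the highest mean of the 4 groups for both rising features and the lowest for ENSGALG00000029657.

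Set against the knockout of the other SF3b subunit, SF3B1 knockout had more called features at lower than at higher levels. Of 15583 features 181 differed from PHF5A knockout (1.16%; edgeR), 51 higher in SF3B1 (0.327%) and 130 lower (0.834%). An unadjusted edgeR p under 0.05 was met by 2743 features. Of the called features, the higher ones had a median span of 5.62 kb and a median difference of 1.32 on the log2 scale. The lower ones had a median span of 42.8 kb and a median difference of -1.21. On the Z chromosome, 17 of 747 features were lower and 0 higher, with a median difference of -0.44. With the W share in the model the Z median difference was -0.10. The W chromosome took 0.0369% and 0.0973% of the counts in the PHF5A libraries, against 0.235% and 0.159% in the SF3B1 libraries. The part of the sex of the embryos in this Z difference was not tested further. In the 130 lower features the median log2 fold change over control was -0.20 in SF3B1 and 1.09 in PHF5A knockout, and 18 of them were among the features that fell in SF3B1 knockout. The number of differing features was 34 without SF3B1 guide 1, 3 without SF3B1 guide 2 and 16 when only the 4 libraries of both knockouts were fitted. It fell as well without DLC1 guide 1 or guide 2, which enter here through the filter, the scaling and the spread. With the W share in the model it was 0.

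Against DLC1 knockout 774 features differed (4.97%; edgeR), 374 higher in SF3B1 (2.40%) and 400 lower (2.57%). Over 300 kb, 53 of 220 features differed (24.1%), every one of them lower in SF3B1, with a median difference of -0.65. In the same class 10 features differed from PHF5A knockout (4.55%), again all lower, with a median difference of -0.52. From 100 to 300 kb, 70 of 1118 features were lower and 3 higher than in DLC1 knockout, and 24 were lower than in PHF5A knockout, with medians of -0.24 and -0.28. By library the median ratio of the features over 300 kb to the controls was 0.02 and -0.25 for the SF3B1 guides, 0.47 and 0.49 for PHF5A and 0.59 and 0.60 for DLC1. Both SF3B1 libraries thus lay below all 4 others. The SF3B1 and control libraries were sequenced less deeply than the others.

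The calls between SF3B1 and DLC1 knockout depended on single libraries. The median difference over 300 kb stayed below 0 in each case. Both SF3B1 libraries lay below both DLC1 libraries in that class, so leaving out 1 of them could hardly turn the sign. Without DLC1 guide 1, 24 of the features over 300 kb were lower in SF3B1 knockout. Without DLC1 guide 2 or SF3B1 guide 2 no such call was left in edgeR, and without SF3B1 guide 1 there was 1. The median difference was -0.68 and -0.65 without DLC1 guide 1 and guide 2, and -0.79 and -0.58 without SF3B1 guide 1 and guide 2. Over all features, 517 differed without DLC1 guide 1, 6 without DLC1 guide 2, 35 without SF3B1 guide 1 and 18 without SF3B1 guide 2. Without PHF5A guide 1 or guide 2 the numbers were 1627 and 1594, with only the 4 libraries of both knockouts 1953, and with the W share in the model 14.

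The values of the changed features are given beside those in the other knockouts, which share the control libraries. PHF5A knockout differed from control in 4858 (31.2%) and DLC1 knockout in 2856 (18.3%) of 15583 features. The median of the 1519 risen features was 1.30 in SF3B1, 1.28 in PHF5A and 0.83 in DLC1 knockout on the log2 scale. The 1117 fallen ones had medians of -0.88, -0.91 and -0.71. Of the risen features 174 differed from DLC1 knockout, 162 of them by standing higher in SF3B1, and 15 differed from PHF5A knockout, 3 of them by standing higher. Of the fallen features 85 differed from DLC1 knockout, 78 of them by standing lower in SF3B1. From PHF5A knockout 21 differed, 18 of them by standing lower. Over all 15583 features tested, 4.97% differed from DLC1 and 1.16% from PHF5A knockout. The 15 of 1519 risen features that differed from PHF5A knockout were a smaller share than that, and the 21 of 1117 fallen ones a larger share. Since these sets were chosen by their change in SF3B1 knockout, a larger change there is in part fixed by the choice.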

How the data were processed

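Per the submitters' processing notes, reads were handled with STAR 2.7.11b, Trimmomatic 0.39, FastQC 0.12.1 and Subread's featureCounts 1.5.3 on GRCg6a. Neither the annotation release nor the strand setting is given. The authors deposited raw counts for 30862 features in 8 libraries, and the deposited length equals the span in 100% of rows. No ID matched the 25635 RefSeq genes at hand (GRCg7b), of which 0 carry an Ensembl ID.

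All 8 libraries entered 1 fit in edgeR 4.0.16 (R 4.3.3): filterByExpr, library sizes and TMM factors without MT, Z and W, and a robust quasi-likelihood F-test with Benjamini-Hochberg adjustment over 15583 features, called under 0.05. Each SE is the fold change divided by the root of F. Log2 CPM used a prior count of 2. The floor of 3 counts lay between 0.0923 and 0.256 CPM. Intervals and floors cover counting error only. Named features overlap no other, hold at least 10 reads in each of the 4 libraries, average at least 5 CPM in either group and rank by their smallest ratio. Members, groups and rules were chosen with earlier results of these data known. The test was also run on counts simulated from the levels and spread of this same fit, with planted changes. No differences in W or mitochondrial share were built in, so that run does not bear on how the calls depend on them. DESeq2 1.42.0 was an alternative. Leaving out libraries that a comparison does not use was added after seeing the data. Replicate numbers were not treated as pairs, since deviations of same-numbered libraries correlated from -0.221 to 0.281 between groups.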

Additional observations from a re-analysis of the deposited data

Results flagged for a closer look

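Differences between knockouts were tested directly in the same edgeR fit. SF3B1 differed from PHF5A knockout in 181 features and from DLC1 knockout in 774. The named features were chosen by their change in SF3B1 knockout, so a larger change there is in part fixed by the choice. Among the named features, ENSGALG00000066579 was higher in SF3B1 than in DLC1 knockout by 2.27 on the log2 scale (SE 0.45, edgeR adjusted p = 0.0312), while its difference from PHF5A knockout of 0.99 (SE 0.43, adjusted p = 0.265) was not called. ENSGALG00000029657 was lower in SF3B1 than in both others, with log2 differences of -2.69 from PHF5A (SE 0.42, edgeR adjusted p = 0.0249) and -3.03 from DLC1 knockout (SE 0.42, edgeR adjusted p = 0.0157). In all 4 PHF5A and DLC1 libraries it stood above both SF3B1 libraries. For ENSGALG00000030710 the differences were 0.40 (SE 0.46, edgeR adjusted p = 0.691) and 1.91 (SE 0.48, adjusted p = 0.05, just above the threshold), and for ENSGALG00000067111 they were 1.36 (SE 0.68, edgeR adjusted p = 0.331) and 2.31 (SE 0.74, adjusted p = 0.0849).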

How the results depend on the processing

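Calls in SF3B1 knockout, 2636 as reported, were 2507 with MT, Z and W in the scaling, 2728 with median-ratio factors, 3182 with library size as the only scaling, 3603 with DESeq2, 3930 with no filter and 3071 with only the 4 libraries. Of the 2636, 87.4%, 98.9%, 67.1%, 95.9%, 97.5% and 90.0% were called in the same direction there. With 1 of the 8 libraries left out the calls ran from 132 to 3443. The W share as a covariate left 2. Of the features called with both guides on the same side of both controls, 856 had all 4 ratios at least 2-fold and 131 were called with each guide alone. The replicate number as a block gave 4197 calls, 4180 of them on the same side in every library and 49% of those risen, and 563 against PHF5A and 1791 against DLC1. The labels do not pair the libraries, and deviations of same-numbered SF3B1 libraries correlated at 0.074 with control, 0.281 with PHF5A and 0.226 with DLC1. Calls against PHF5A knockout (181) and DLC1 knockout (774) were 683 and 1869 with DESeq2 and 980 and 2395 with no filter. They were 16 and 1953 with only the libraries compared, and 0 and 14 with the W share (1286 and 2730 at an unadjusted p under 0.05). With 1 library left out they ran from 3 to 162 and from 6 to 1627. Leaving out libraries that a comparison does not use was chosen after seeing the data. Among the named features none reversed in the 12 alternatives each. The cause of these differences was not tested. With 2 libraries a group, depth limits low features most: 3 counts are 0.248 and 0.256 CPM in the controls and 0.156 and 0.195 CPM in the SF3B1 libraries.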

Other observations

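Some features had reads in one group and none in the other. Counts outside MT, Z and W were 13781374 and 13759471 in the controls and 17212759 and 14749843 in the SF3B1 libraries, so the SF3B1 libraries were the deeper ones for these features, and the part of depth was not tested. With at least 10 reads in both SF3B1 libraries and none in either control there were 8 features, whose median span was 3.65 kb, and 4 of them had at least 10 reads in all 4 PHF5A and DLC1 libraries as well. None of the 8 was without reads in all 4. The converse, at least 10 reads in both controls and none in either SF3B1 library, was met by 0 features. With a minimum of 5 reads the numbers were 30 and 2, and with a minimum of 20 reads 3 and 0. These counts carry no test.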
